A study of Rattus norvegicus with 4 samples.

Results

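Fibroblasts of the rat abdominal midline fascia that carry much Postn RNA and no detected Cd34 RNA were described here from 4 single-cell libraries. The members were chosen by a rule on measured values. A cell had at least 300 genes and at most 20% mitochondrial UMIs (unique molecular identifiers, each counting 1 captured RNA molecule). It passed a stromal gate of at least 30 UMIs per 10000 summed over Col1a1, Col1a2, Col3a1, Dcn, Mfap5 and Serpinf1, with no Ptprc and no Pecam1 UMI. Within that gate it had at least 10 Postn UMIs per 10000, no Cd34, Mrgprg or Myoc UMI, and fewer than 3 Has1 UMIs. The rule kept 4480 of 16825 gate cells, from 34904 cells that passed the quality limits and 38282 deposited cells. The other 12345 gate cells were the main comparison, and the 2573 cells that met the rule except that they had Cd34 were a second one.

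All rats had dysentery induced with Salmonella, and the groups were rats with dysentery alone and rats with dysentery that received acupuncture, with 2 libraries each. The tissue was subcutaneous fascia of the abdominal midline, taken apart with collagenase, elastase and DNase I, cleared of red and dead cells, and profiled with 10x chemistry that reads the 3′ end of transcripts. Age, sex and strain of the rats are not given in the sources used here. Libraries were assigned by their titles, which the sample descriptions and the study's design text match, whereas the treatment field of every library names the opposite group. All directions below rest on the titles. Whether the libraries came from separate animals is not said, so the p-values reflect no more than how far these libraries vary, which may be technical variation.

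Fascia is a sheet of collagen-rich connective tissue made and maintained mainly by fibroblasts. Postn encodes periostin, a secreted protein that binds collagen and integrins and is made where matrix is laid down or repaired. Cd34 encodes a cell surface sialomucin that marks many resting fibroblasts of loose connective tissue as well as vessel lining cells. Col14a1 encodes a collagen that sits on the surface of collagen fibrils, and Ccdc80 encodes a secreted protein that binds matrix.

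The deposited libraries held 7965 to 11327 cells and 53066666 to 93897006 UMIs. Between 19 and 32 cell barcodes were shared by each pair of libraries, of which 0 to 2 were member barcodes in both. The acupuncture 1, acupuncture 2, dysentery 1 and dysentery 2 libraries gave 873, 1071, 1039 and 1497 members. Members were shallower than the gate cells beside them, with medians of 3969, 4295, 5556 and 4894 UMIs against 8232, 11125.5, 7939.5 and 7213. No doublets were removed for the main values. Removing the cells with the highest doublet scores would have taken 5.04%, 1.12%, 3.75% and 6.28% of the members.

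Periostin RNA was a property of most of the gate rather than of the members. In the acupuncture 1, acupuncture 2, dysentery 1 and dysentery 2 libraries, 86.4%, 85.2%, 83.1% and 80.4% of gate cells had at least 10 Postn UMIs per 10000, against 7.02%, 4.82%, 8.19% and 9.25% of cells outside the gate. The median member had 47.1, 39.0, 44.7 and 36.2 Postn UMIs per 10000. Summed over members, Postn was at 5247, 4357, 5155 and 4269 CPM (UMIs of a gene in 1000000 UMIs of those cells), against 4248, 3452, 3929 and 2679 CPM in the other gate cells. These Postn values come from the choice of cells and carry no test. Few cells lay near the limit: 23, 22, 32 and 65 cells that met every other condition had 8 to 10 Postn UMIs per 10000, and 18, 20, 36 and 68 members had 10 to 12.

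The lack of Cd34 was tied to how deeply a cell was read. Among gate cells that met the other conditions, the share without a Cd34 UMI was 89.3% (95% exact Clopper-Pearson interval 84.8 to 92.8), 92.6%, 93.8% and 93.0% at 500 to 2000 UMIs. At 8000 to 16000 UMIs it was 41.9% (36.8 to 47.0), 45.6%, 49.8% and 49.5%. The fall with depth was seen in all 4 libraries, and such intervals cover counting error only. A member is therefore a cell in which Cd34 was not detected at its depth, and the name Cd34-negative goes further than the counts do.

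**Figure D1:**
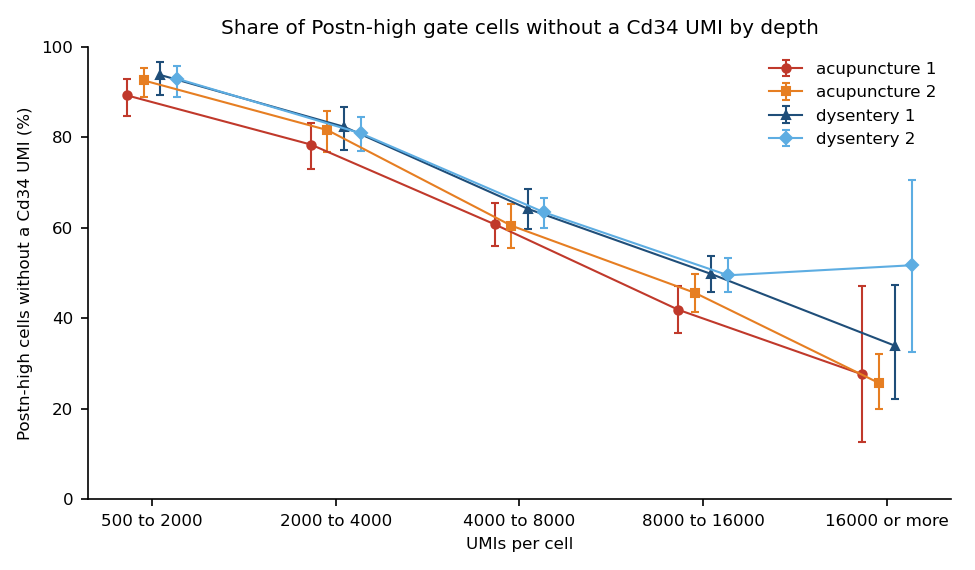
Share of Postn-high gate cells without a Cd34 UMI (y axis, percent) by UMIs per cell (x axis), one symbol per library, with 95% exact Clopper-Pearson intervals as bars. The share starts at 89.3% to 93.8% in the shallowest cells of the 4 libraries and is 41.9% to 49.8% at 8000 to 16000 UMIs.

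To compare cells at equal depth, every cell was thinned to 3000 UMIs, shallower cells were left out, and the rule was applied again. The limits on Cd34, Mrgprg, Myoc and Has1 are counts of UMIs, so they are easier to meet after thinning. Thinning thus loosened the rule as well as evening the depth. This setting was added after the data had been seen. It gave 1171, 1599, 1327 and 2063 members, of which 530, 657, 742 and 1048 were also members before thinning. It left out 340, 409, 288 and 427 of the original members. At equal depth Col14a1 had a UMI in 93.5%, 97.6%, 95.9% and 98.0% of members, in 92.2%, 91.2%, 89.7% and 94.6% of the other gate cells, and in 6.11%, 5.34%, 12.6% and 11.7% of cells outside the gate. Without thinning the member shares were 91.3%, 92.8%, 93.3% and 96.5%. Ccdc80 had a UMI in 99.7%, 99.9%, 99.6% and 99.4% of thinned members, against 10.8%, 9.49%, 17.3% and 14.5% of cells outside the gate. Both markers thus sat in nearly all members and also in nearly all of the other gate cells. Shares this near 100% leave little room to differ between the 2 sets, and levels are compared below.

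Cells of other types were looked for with marker lists. The summed macrophage and monocyte list was at 884 and 406 CPM in members of the acupuncture libraries and at 316 and 346 CPM in the dysentery libraries, with none of its 11 genes at 0. The other gate cells had 256 to 573 CPM of it. The endothelial list summed to 10.9 to 18.2 CPM in members, with 1 to 3 of its 10 genes at 0. The mesothelial list summed to 2.35 to 7.5 CPM, with 4 or 5 of its 7 genes at 0. The mural list summed to 114 to 140 CPM in members and to 86.3 to 147 CPM in the other gate cells. The epithelial list summed to 458 CPM in the acupuncture 1 library, of which the milk casein Csn3 made up 312 CPM. It summed to 6.10 CPM in acupuncture 2 and to 143 and 109 CPM in the dysentery 1 and 2 libraries. The neutrophil and mast cell list summed to 123 and 93.1 CPM with acupuncture and to 492 and 31.1 CPM without. The lymphocyte list summed to 4.38 to 7.33 CPM with acupuncture and to 10.3 to 35.8 CPM without. The epithelial and the neutrophil and mast cell lists varied between libraries of 1 group, while the macrophage, adipocyte and lymphocyte lists did not overlap between the groups; the adipocyte list summed to 398 to 457 CPM with acupuncture and to 769 to 797 CPM without. The part of such transcripts in the results was tested only by leaving out the 67 members whose leading genes were those of immune or milk-secreting cells. No comparison cells were left out in that setting. It therefore cannot decide that part where members are set against other cells.

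Members made up 21.8%, 29.0%, 38.6% and 23.3% of the gate cells. The mean was 25.4% ± 5.09 (SD, n = 2) with acupuncture and 30.9% ± 10.8 (SD, n = 2) without, a difference of -5.48 percentage points (two-sided exact permutation test, p = 0.667; the smallest p that 2 libraries against 2 allow is 0.333). The dysentery libraries lay on either side of the acupuncture 2 library, so the groups overlapped. The difference was 2.17 points without the dysentery 1 library and -13.1 points without the dysentery 2 library. Thinning raised the shares to 34.5%, 50.0%, 57.7% and 36.6%, with the libraries in the same order. Cells with at least 3 Has1 UMIs, which the rule removes, made up 26.2% and 24.9% of gate cells with acupuncture and 3.93% and 6.59% without. With no limit on Has1 the difference in member share was -0.95 points.

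Members were first compared with the other gate cells of the same library, to describe which genes go along with the rule. Genes that track Postn, Cd34 or Has1 differ here by way of the choice, so these values describe the cells picked. Ccdc80 was at 4470, 4625, 3928 and 3909 CPM in members and at 3780, 4161, 3415 and 2676 CPM in the other gate cells of the same libraries, a log2 fold change of 0.32 (SE 0.06, edgeR quasi-likelihood test, Benjamini-Hochberg adjusted p = 0.0193). It was higher in all 4 libraries, and its call was lost without the acupuncture 1 or the dysentery 1 library. Col14a1 was at 1547, 1946, 1951 and 2041 CPM against 1509, 1680, 1820 and 1950 CPM, a difference of 0.14 that did not pass the test (edgeR, adjusted p = 0.367). Over all genes, 139 of 11660 passed (1.19%), 48 of them higher in members (0.412%) and 91 lower (0.78%), and 21.4% of genes lay on the same side in all 4 libraries. The higher genes included the mast cell proteases Mcpt1l1 (0.95) and Cpa3 (0.95), and Mcpt1l1 was at -0.96 in cells of equal depth.

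Cpz, which encodes a secreted carboxypeptidase that binds Wnt proteins, had 430, 526, 447 and 504 CPM in members and 322, 403, 353 and 430 CPM in the other gate cells (log2 fold change 0.38). Igsf10 was higher by 0.45. Col16a1, a fibril-associated collagen, was higher by 0.35, and Col5a2, a chain of the collagen that sets fibril width, by 0.25. They were the called members of 11 tested fibrillar and fibril-associated collagens, whose median was 0.14 against -0.00 over all genes. Neither was called without the acupuncture 1 or the acupuncture 2 library. Mmp2, a gelatinase, was higher by 0.28. Mfap2, a protein of elastic microfibrils, was higher by 0.28 as well, and Fn1, fibronectin, by 0.26. C4b and C4a, genes of complement component 4 that are near-identical and share reads, were each higher by 0.36, with C4b at 9619, 7465, 11185 and 11326 CPM in members against 7224, 5875, 9394 and 9248 CPM. All of these differences were small, under 1.5-fold, and in one direction in every library. Besides Ccdc80, the calls of Cpz, Igsf10, C4a and C4b were lost without the acupuncture 1 or the dysentery 1 library, those of Mmp2, Mfap2 and Fn1 without acupuncture 1, acupuncture 2 or dysentery 1, and that of Col5a2 without any 1 of the 4.

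Genes of contractile and tendon cells were on the lower side. Of 19 tested myofibroblast and contractile genes, 5 were lower and none higher, with a list median of -0.13. Acta2, smooth muscle actin, was at 2.37, 1.88, 1.22 and 0.239 CPM in members and at 5.80, 7.43, 1.97 and 0.522 CPM in the other gate cells (log2 fold change -1.39). Tpm2 (-1.31), Myl9 (-0.88), Lmod1 (-0.99) and Myh11 (-1.41), which encode tropomyosin, myosin chains and an actin-binding protein of muscle, were the other 4. All 5 were at low levels in both sets of cells. Acta2, Myl9, Lmod1 and Myh11 lost their calls without the acupuncture 1 or the acupuncture 2 library, and the last 3 also without dysentery 1. The count went from 0 to 7 across the other settings and was 0 when the Postn limit was lowered to 5. Of 8 tested tendon and ligament markers, 3 were lower, with a median of -0.91. Cilp, a cartilage and tendon matrix protein, was at 22.2, 13.5, 22.7 and 3.70 CPM against 61.3, 44.8, 44.6 and 5.28 CPM (-1.23). Clu, the chaperone clusterin, was lower by -0.98 and Prg4, the lubricant lubricin, by -1.11. Cilp lost its call without the acupuncture 1 library, and Prg4 without any 1 library other than dysentery 2.

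Signalling genes were lower in part. Of 33 tested TGF-beta and BMP genes, 3 were lower: Gdf10 (-0.98), a ligand of the family, and Id1 (-0.84) and Smad7 (-0.46), which are targets of the pathway. Id4, a relative of Id1 outside that list, had 30.3, 25.7, 28.5 and 19.8 CPM in members against 63.1, 58.6, 54.5 and 28.4 CPM (-0.89). Sfrp2, a secreted Wnt antagonist, was the 1 lower gene of 24 Wnt genes (-0.94). Igfbp7, which binds insulin-like growth factors, was lower by -0.84. Cav1, the main coat protein of caveolae, was lower by -1.43, at 14.9, 6.57, 11.6 and 6.92 CPM against 36.6, 30.5, 31.4 and 13.5 CPM. Cldn1, a tight junction protein of perineurial and epithelial cells, had a single UMI in the members of all 4 libraries, and 2.18 to 6.27 CPM in the other gate cells. Clu, Gdf10, Id4 and Cav1 were lower in all 4 libraries. Without the dysentery 1 library the calls of Id1, Igfbp7, Smad7 and Cav1 were lost. Igfbp7 was also not called without dysentery 2, and Smad7 also not without acupuncture 1 or acupuncture 2.

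Of 24 tested cytokine and chemokine genes, 3 were lower in members, and 2 of them moved with the Has1 limit of the rule. Il6, the cytokine interleukin 6, was at 25.5 and 29.3 CPM in members of the acupuncture libraries against 131 and 158 CPM in the other gate cells, a log2 fold change of -2.32 over the 4 libraries. Against only those other gate cells with fewer than 3 Has1 UMIs it was 0.08. Cxcl3, a neutrophil chemokine, went from -2.00 to 0.20 in the same step. Cxcl14, a chemokine of resting epithelium and stroma, did not: it was at -2.45 and still called lower against low-Has1 cells, with its call lost without the dysentery 1 library. Against the Postn-high cells that had Cd34, however, Cxcl14 was called higher in members. It was at 1.10 to 2.26 there over the 12 other settings that tested it, with the call lost in 3. Has2, which makes hyaluronan as Has1 does, went from -0.50 to -0.08. The comparison with low-Has1 cells was added after the data had been seen.

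**Figure D2:**
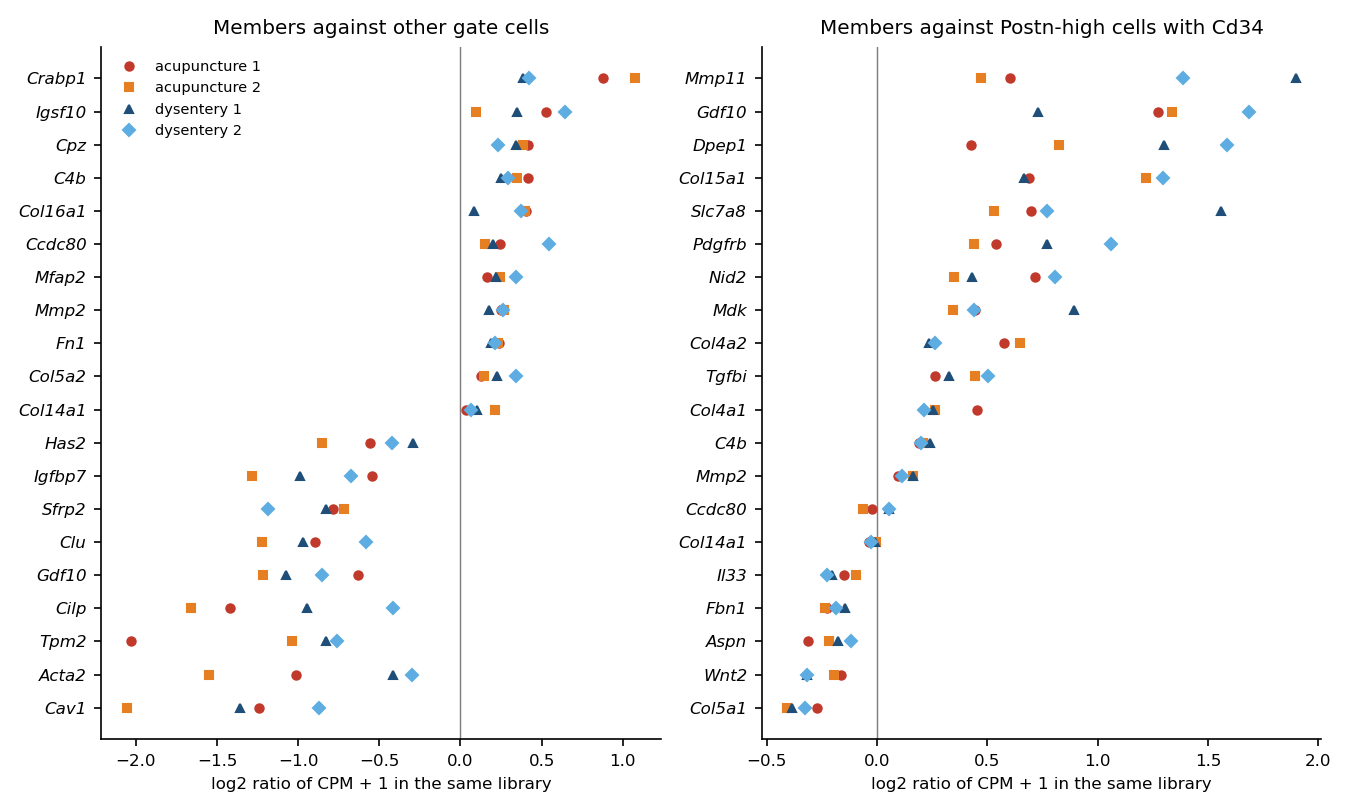
Log2 ratio of CPM, with 1 CPM added, between members and comparison cells of the same library (x axis) for genes named in the text (y axis), one symbol per library. On the left, against the other gate cells, Ccdc80 and Cpz lie above 0 and Cav1 and Cilp below 0 in all 4 libraries. On the right, against Postn-high cells with Cd34, Ccdc80 and Col14a1 lie near 0 and Mmp11, Dpep1 and Tgfbi above 0.

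The second comparison was with Postn-high cells that had Cd34 and met all other conditions, so the 2 sets differed by rule in Cd34 only. They also differed in depth, with medians of 7615, 11169, 9404 and 7736.5 UMIs in the cells with Cd34 against 3969, 4295, 5556 and 4894 in members. Ccdc80 (log2 fold change 0.02, edgeR quasi-likelihood test, adjusted p = 0.894) and Col14a1 (-0.01, adjusted p = 0.952) had nearly the same levels in both sets. So did Pi16 (-0.01), a marker of adventitial fibroblast progenitors, at 3408, 4013, 1814 and 2157 CPM against 3574, 3762, 1852 and 2262 CPM. Of 10789 genes, 141 passed (1.31%), with 104 higher in members (0.964%) and 37 lower (0.343%). Since Cd34 is missed more often in shallow cells, values at equal depth are given beside the others where a gene was tested there. In that setting 110 genes were called, 28 of them among the 141. The cells differ there too, since only 530 of 1171, 657 of 1599, 742 of 1327 and 1048 of 2063 members had been members before thinning. Why a value moved in that setting was not tested.

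Mmp11, which encodes stromelysin 3, a protease of tissue remodelling, was at 13.7, 6.26, 55 and 22.8 CPM in members and at 8.70, 4.24, 14.0 and 8.11 CPM in Cd34-positive cells. It was higher by 1.44 (SE 0.21, edgeR adjusted p = 0.0169), and by 1.43 at equal depth. The call was lost without the dysentery 2 library. Dpep1, a membrane dipeptidase, had 30.8, 18.5, 29.9 and 15.6 CPM against 22.6, 9.98, 11.5 and 4.54 CPM (1.05, and 1.00 at equal depth). Its call was lost without the acupuncture 2 library. Slc7a8, an amino acid transporter, was higher by 0.97 (0.76 at equal depth) and Mdk, the growth factor midkine, by 0.60 (0.59). Tgfbi, a TGF-beta induced matrix protein related to periostin, was at 225, 109, 235 and 243 CPM against 188, 80.2, 187 and 171 CPM, higher by 0.39 and by 0.45 at equal depth. Tgfbi and Mdk held their calls without each library in turn. All 5 of these genes were higher in all 4 libraries.

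Of 13 tested basement membrane genes, 5 were higher and none lower at the deposited depth, 1 of them called by DESeq2, and the list median was 0.11 against -0.00 over all genes. At equal depth none of them passed edgeR's test. Col15a1, a collagen of the zone between basement membrane and stroma, was at 62.7, 24.3, 26.8 and 23.4 CPM against 38.5, 9.86, 16.5 and 8.92 CPM (0.98, and 0.57 with adjusted p = 0.0665 in edgeR at equal depth). Col4a1 went from 0.30 to 0.15, Col4a2 from 0.43 to 0.21 and Nid2 from 0.63 to 0.48. Pdgfrb, the receptor that marks mural and some perivascular cells, was higher by 0.73 and by 0.38 at equal depth, where the call was lost. Id1 went from 0.85 to 0.23, C4a from 0.24 to 0.11 and C4b from 0.22 to 0.04, all without a call at equal depth. Nid2 was further not called without the acupuncture 1 or the dysentery 2 library. Gdf10 was higher by 1.43 in this comparison, although it was lower than in the whole rest of the gate, and was not tested at equal depth.

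Some fibril genes were lower in members than in Cd34-positive cells. Col5a1, the partner chain of Col5a2, was at 65.8, 73.6, 53.7 and 54.8 CPM against 79.5, 97.8, 70.4 and 68.9 CPM (-0.35, and -0.38 at equal depth). Fbn1, the microfibril protein fibrillin 1, was lower by -0.19 (-0.16) and Aspn, a small proteoglycan that binds collagen, by -0.19 (-0.29). Without the acupuncture 1 library Fbn1 and Aspn lost their calls. Il33, an alarmin cytokine, was lower by -0.16 (-0.11), Wnt2, a Wnt ligand, by -0.25 (-0.12), and Nfix, a nuclear factor of fibroblasts, by -0.28 (-0.07). None of these 3 was called at equal depth, and without the dysentery 2 library Il33 and Wnt2 were not called. Pi16 (-0.14, edgeR adjusted p = 0.000954) and Dpp4 (-0.18, edgeR adjusted p = 0.00259), which mark the same progenitors, were lower at equal depth only.

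Transcripts of mast cells and macrophages were among the higher genes. Mcpt1l1, a mast cell protease gene of a multigene family, was higher by 1.44 and by 0.14 at equal depth, and Cpa3, another mast cell protease, was higher by 1.20 and not tested at equal depth. Without the acupuncture 2 library Mcpt1l1 was at 0.89 and Cpa3 at 0.71, and neither was called. Aif1, a macrophage gene, was higher by 0.59 and by 0.77 at equal depth, and its value was -0.16 without the 67 members led by genes of immune or milk-secreting cells. The Cd34-positive cells were not cleared of such cells, so the change of sign does not show where the Aif1 RNA came from. The median over 11 tested macrophage genes was 0.59, with 1 called.

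The members were clustered among themselves to see what kinds of cell the rule had gathered. The 7 clusters are given by number, since no cluster was named from fixed markers, and gene values within them are a description. Cluster 3 held 51.5% and 38.7% of members in the acupuncture libraries and 3.37% and 5.95% in the dysentery libraries, and was led by Cxcl1, Atf3, Egr1 and Jun. Cluster 2 held 28.4% and 55.1% against 5.58% and 10.6%, and was led by Mfap4, Plac9, Lum and Pi16. Its median depth was 2327 UMIs, the lowest of the 5 large clusters. Cluster 1, led by Ccl5 and Herc6, held 6.87% and 1.12% of members with acupuncture and 60.4% and 26.8% without. Cluster 4, led by Olfml2a and Il1r2, held 1.95% and 0.747% against 18.9% and 50.2%. These 4 clusters were thus mostly of one group's libraries, and the genes that define them differ between the groups as well.

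Cluster 5 was found in all 4 libraries, with 64, 39, 112 and 80 cells, or 7.33%, 3.64%, 10.8% and 5.34% of the members. Its leading genes were Mgp, matrix Gla protein that blocks calcification, at 2246 CPM against 33.0 CPM in the other members, and Crabp1, a retinoic acid binding protein, at 370 CPM against 2.08 CPM. Col15a1 was at 369 CPM against 3.43 CPM, Mmp11 at 275 CPM against 5.08 CPM and Dpep1 at 241 CPM against 4.70 CPM. This small cluster held 90.2%, 83.9%, 91.4% and 92.3% of the members' Col15a1 UMIs, and 75.4%, 77.1%, 84.1% and 84.0% of their Dpep1 UMIs. For Mmp11 the shares were 50.0%, 72.5%, 89.4% and 78.0%. They were 82.6%, 79.5%, 92.8% and 86.9% for Mgp, and 68.3%, 60.7%, 75.1% and 82.7% for Igfbp7. For Cilp they were 93.6%, 52.3%, 81.8% and 100%. Tgfbi was spread more evenly, with 17.2%, 15.9%, 19% and 11.2% of its UMIs in cluster 5. Most of the members' Col15a1, Dpep1, Mgp, Igfbp7 and Cilp UMIs thus lay in a small minority of them, and most of their Tgfbi UMIs did not. Cluster 6, with 60 cells led by C1qa, C1qb and C1qc of macrophages, and cluster 7, with 7 cells led by the milk protein genes Csn3 and Csn1s1, are the 67 members referred to above.

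**Figure D3:**
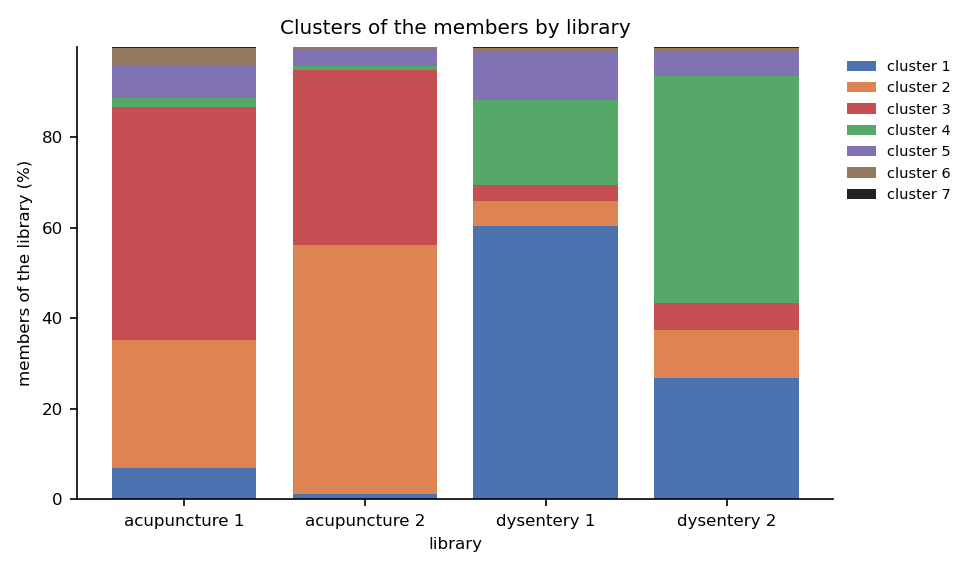
Share of each library's members (y axis, percent) in each of 7 clusters of the members, stacked, for the 4 libraries (x axis). Clusters 2 and 3 fill most of the acupuncture bars and clusters 1 and 4 most of the dysentery bars, while cluster 5 is at 3.64% to 10.8% in all 4.

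The third comparison set members with acupuncture against members without, over summed UMIs per library. Of 11028 genes, 216 passed (1.96%), 112 higher with acupuncture (1.02%) and 104 lower (0.943%). The groups did not overlap for 44.7% of all genes tested, called or not. Among 53 called genes named by rule, 29 held their call in every one of the 16 other settings in which they were tested. Genes that missed the test may still differ. Of 11 tested macrophage markers none passed, but their median was 1.16, with 7 of 11 not overlapping between the groups, and the part of macrophage RNA in the other differences was tested only by leaving out clusters 6 and 7, after which 212 of the 216 genes were still called.

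Lum, which encodes lumican, a small leucine-rich proteoglycan that orders collagen fibrils, was at 544 and 541 CPM in members of the acupuncture libraries and at 91.4 and 79.2 CPM in the dysentery libraries. The groups were far apart, with a log2 fold change of 2.71 (SE 0.16, edgeR quasi-likelihood test, adjusted p = 2.35e-05). The other gate cells were at 580 and 600 CPM against 113 and 45.2 CPM. Bgn, the proteoglycan biglycan, was at 229 and 321 CPM against 134 and 120 CPM (1.18). The call of Bgn was lost at Postn limits of 5 and 20 and at equal depth, while that of Lum held. Lum and Bgn were the 2 called of 8 tested proteoglycans of this family, whose median was 0.22.

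Collagens went both ways. Of 14 tested fibrillar and fibril-associated collagens, 2 were higher and 1 lower, with a median of 0.31. Col6a3, a chain of beaded collagen VI, rose from 613 and 544 CPM to 1007 and 956 CPM (0.80), a call lost without the dysentery 1 or the dysentery 2 library. Col5a3 was higher by 1.10. Col12a1, a fibril-associated collagen of loaded tissue, was at 22.7 and 16.9 CPM with acupuncture and at 54.4 and 54.1 CPM without (-1.43, edgeR adjusted p = 0.00143), and this call held in all other settings. The other gate cells had 43.3 and 39.4 CPM of it against 56.6 and 53.2 CPM. Nid2 (1.59) and Col18a1 (0.81) were the higher members of 14 basement membrane genes.

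Of 20 tested matricellular genes, 2 were higher and 2 lower. Cthrc1, a secreted protein of activated fibroblasts, was higher by 1.30, at 36.7 and 42.1 CPM against 19 and 14.3 CPM. Mgp was higher by 1.04, with most of the members' Mgp UMIs in cluster 5. Its call was lost in 5 of 16 other settings, those without the acupuncture 2 or the dysentery 2 library among them. Ccn2, connective tissue growth factor, was at 7.57 and 5.95 CPM with acupuncture and at 28.5 and 43.7 CPM without (-2.40). With no Has1 limit Ccn2 was -1.47 and at equal depth -1.13, and neither passed. Its relative Ccn3 was lower by -1.03. Tnfaip6, which crosslinks hyaluronan, was higher by 0.90, at 99.8 and 74.7 CPM against 55.6 and 40.0 CPM. It was not called without the dysentery 2 library, nor were Cd55 and Col18a1.

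The markers that name these cells did not pass in this comparison. Ccdc80 differed by 0.26 (edgeR adjusted p = 0.484) and Col14a1 by -0.14 (edgeR adjusted p = 0.779). Postn, which the rule used, differed by 0.06 and is given without a test. Pi16 was higher by 0.95, at 3408 and 4013 CPM against 1814 and 2157 CPM, and its call was lost without the dysentery 1 or the dysentery 2 library. Cd55, a complement regulator found on the same progenitors, was lower by -0.80, and Dpp4 was at -0.11 with no call. Of 17 tested myofibroblast and contractile genes, Tagln, Myl9 and Cthrc1 were higher and none lower. Acta1, the actin of skeletal muscle, was called higher as well, with 39 UMIs pooled over the acupuncture libraries and 1 over the dysentery libraries, while the muscle troponin Tnnt3 was lower by -0.76. Pooled over libraries Myl9 had 63 UMIs with acupuncture and 12 without, a ratio of 7.37 (95% counting interval 3.94 to 15). Tagln and Myl9 were not called without the acupuncture 2 library. Acta2 missed the test at 1.63 and was -0.05 with no Has1 limit.

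Some immediate early genes were higher in members with acupuncture. These genes are switched on within minutes of a stimulus, tissue dissociation among them. Of 23 tested, 5 were higher and none lower, with a median of 0.86 against -0.00 over all genes. The count ran from 4 to 15 across the other settings that kept all 4 libraries. With no Has1 limit in the rule it was 14 of 23, with a median of 1.78. At equal depth it was 10 of 23, with a median of 1.37. The count and the median thus depend on which cells the rule keeps. Jun, a subunit of the AP-1 factor, was at 1826 and 1991 CPM against 459 and 488 CPM (2.06, edgeR adjusted p = 0.000292). Egr1, a zinc finger factor, was higher by 2.37, and Atf3, a stress-induced repressor, by 3.09, at 226 and 371 CPM against 39.2 and 34.6 CPM. Myc was higher by 0.95. Atf3 missed the threshold at a Postn limit of 5, among other settings. Dnaja1 (0.79), Hsp90aa1 (0.90) and Dnajb4 (1.23) were the 3 higher of 16 heat shock chaperones. Dnaja1 and Hsp90aa1 lost their calls without the dysentery 1 or the dysentery 2 library, and Dnajb4 without acupuncture 2. The median mitochondrial share of members was 3.11% and 2.83% with acupuncture and 3.82% and 2.82% without, and the part of sample handling in these genes was not tested.

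Targets of glucocorticoid and clock regulation were higher as well, 5 of 25 tested and none lower, with a median of 0.42. Fkbp5, a chaperone induced by glucocorticoid, was at 39.7 and 26.1 CPM against 6.28 and 6.33 CPM (2.40, SE 0.20, edgeR adjusted p = 0.000316). The other gate cells were at 45.6 and 29.0 CPM against 8.16 and 8.85 CPM, which is nearly the same pair of levels. The clock-linked repressors Nfil3 (2.67), Ciart (1.76) and Bhlhe41 (0.97) were also higher, and all 4 genes held their calls in every other setting. The labels give no time of day for the sampling.

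Il6 showed the widest gap. It had 108 and 187 UMIs in members of the acupuncture libraries and 1 and 2 UMIs in the dysentery libraries, or 25.5 and 29.3 CPM against 0.153 and 0.239 CPM. Pooled, this is a ratio of 138 with a 95% counting interval of 46.8 to 674, and edgeR's adjusted p was 1.55e-05. Cxcl3 had a pooled ratio of 19 (4.76 to 165). Its call was lost without the dysentery 1 or the dysentery 2 library. Of 23 tested NF-kB response genes, 3 were higher: Nfkbiz (2.46), a nuclear cofactor of NF-kB at Il6 and related genes, Bcl3 (1.52), of the same protein family, and the interferon factor Irf1 (0.85). Nfkbiz was at 47.3 and 74.0 CPM against 11.5 and 11.6 CPM. Without the dysentery 1 library Nfkbiz and Irf1 were not called. Cxcl1 (287 and 627 CPM against 17.5 and 60.2 CPM) and Ptgs2 (62.0 and 227 CPM against 30.3 and 68.6 CPM) did not pass, with edgeR adjusted p-values of 0.352 and 0.626. For Cxcl1 the groups were apart, while the acupuncture 1 library lay below dysentery 2 for Ptgs2.

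Other chemokines and receptors fell. Cxcl13, which draws B cells into lymphoid tissue, was at 81.8 and 57.0 CPM in members with acupuncture and at 639 and 482 CPM without (-2.99, SE 0.19, edgeR adjusted p = 2.61e-05). The other gate cells were at 97.1 and 82.7 CPM against 676 and 405 CPM. Cxcl12, a chemokine that retains stem cells and leukocytes, was lower by -0.79, at 942 and 639 CPM against 1515 and 1268 CPM, a call lost without the dysentery 1 or the dysentery 2 library. Il1r2, the decoy receptor that binds interleukin 1 without signalling, was at 117 and 130 CPM against 374 and 516 CPM (-1.80).

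The promoters of 3 of these genes are shown because Il6 and Cxcl13 had the greatest changes among the called cytokines in each direction and Nfkbiz the greatest among the called NF-kB genes. Each line gives the 250 bases before the RefSeq start on assembly GRCr8, read 5′ to 3′ on the gene's strand, with motif matches in capitals. Il6 lies at chr4:5894576-5894825 on the minus strand, Nfkbiz at chr11:58251471-58251720 on the plus strand and Cxcl13 at chr14:13917921-13918170 on the minus strand. The authors' counts were made on another build, so only these letters come from GRCr8.
Il6: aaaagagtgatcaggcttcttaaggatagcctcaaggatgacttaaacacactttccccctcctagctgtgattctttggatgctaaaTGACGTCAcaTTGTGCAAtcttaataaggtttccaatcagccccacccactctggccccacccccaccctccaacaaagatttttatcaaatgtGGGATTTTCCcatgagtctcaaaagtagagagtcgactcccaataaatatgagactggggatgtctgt
Nfkbiz: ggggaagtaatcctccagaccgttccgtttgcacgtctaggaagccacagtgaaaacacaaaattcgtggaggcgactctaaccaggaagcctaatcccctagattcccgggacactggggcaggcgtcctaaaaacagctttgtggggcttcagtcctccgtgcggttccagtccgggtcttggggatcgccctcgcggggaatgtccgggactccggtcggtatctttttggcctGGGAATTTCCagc
Cxcl13: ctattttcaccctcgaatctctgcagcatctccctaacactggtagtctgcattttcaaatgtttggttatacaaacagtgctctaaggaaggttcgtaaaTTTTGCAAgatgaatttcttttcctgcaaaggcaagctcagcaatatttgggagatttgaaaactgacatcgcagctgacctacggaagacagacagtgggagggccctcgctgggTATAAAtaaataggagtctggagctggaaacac
Every motif was searched on both strands. NF-kB and the CArG box were searched by their consensus motifs, and the AP-1 motif was searched as TGANTCA. The cyclic AMP response element (CRE) was searched as TGACGTCA. The motif of C/EBP factors was searched as TTGCNNAA. The TATA box was searched as TATAAA. The Il6 window held a CRE at 162 to 155 bases before the start, a C/EBP match at 152 to 145 and an NF-kB match at 68 to 59. The Nfkbiz window held an NF-kB match at 13 to 4 bases before the start. The Cxcl13 window held a C/EBP match at 149 to 142 and a TATA box at 33 to 28. Of the 112 higher genes 75 had a promoter in the table, and 8 of these (10.7%) held the NF-kB motif and 6 (8%) the CRE. Of the 104 lower genes 64 had one, and 4 (6.25%) held the NF-kB motif and 0 the CRE. The shares over the 8076 tested genes with a promoter were 4.16% and 2.98%, and over all 27457 promoters 3.52% and 1.70%. The AP-1 motif was in 2.67% of higher, 4.69% of lower and 4.20% of tested genes, and the CArG box in 4%, 4.69% and 1.09%. The C/EBP motif was in 8%, 12.5% and 7.45%, and the TATA box in 9.33%, 12.5% and 5.96%. Over all promoters these 4 were in 6.36%, 1.5%, 9.20% and 13.1%. The counts behind these shares are small, from 0 to 8 genes in each set. A match is a description of the letters and not a bound site.

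Of 22 tested Wnt genes 1 was higher and of 23 tested growth signal genes 1 was higher, with none lower. Sfrp4, a Wnt antagonist, was at 411 and 323 CPM with acupuncture against 184 and 151 CPM (1.16), and Fgf18 at 76.4 and 70.0 CPM against 38.7 and 38.5 CPM (0.96). H19, a noncoding RNA of growing tissue, was at 46.8 and 63.9 CPM against 9.34 and 11.3 CPM (2.47), and Tubb3, a tubulin best known from neurons, was higher by 1.65. Gdf15, a stress-induced ligand, had a pooled ratio of 13.3 (7.90 to 23.8). On the lower side were Angptl4 (-1.42) and Lpl (-0.87), an inhibitor of lipoprotein lipase and the lipase itself. Lpl made up most of the summed adipocyte markers of members, which were at 398 to 457 CPM with acupuncture and at 769 to 797 CPM without, and 3 to 6 of those 9 genes were at 0. The part of adipocyte RNA in it was not tested. Galnt15, which adds sugars to proteins, was at 84.0 and 87.8 CPM against 240 and 242 CPM (-1.44). Tbx15, a patterning factor of mesenchyme, was lower by -1.33 and the BMP antagonist Chrdl1 by -1.17. The oxygen sensor Egln3 was lower by -1.97 while Higd1a, a mitochondrial protein of hypoxia, was higher by 1.10. Lpl was not called without the dysentery 1 or the dysentery 2 library. Except for Gdf15 and Lpl, these genes held their calls in every other setting.

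**Figure D4:**
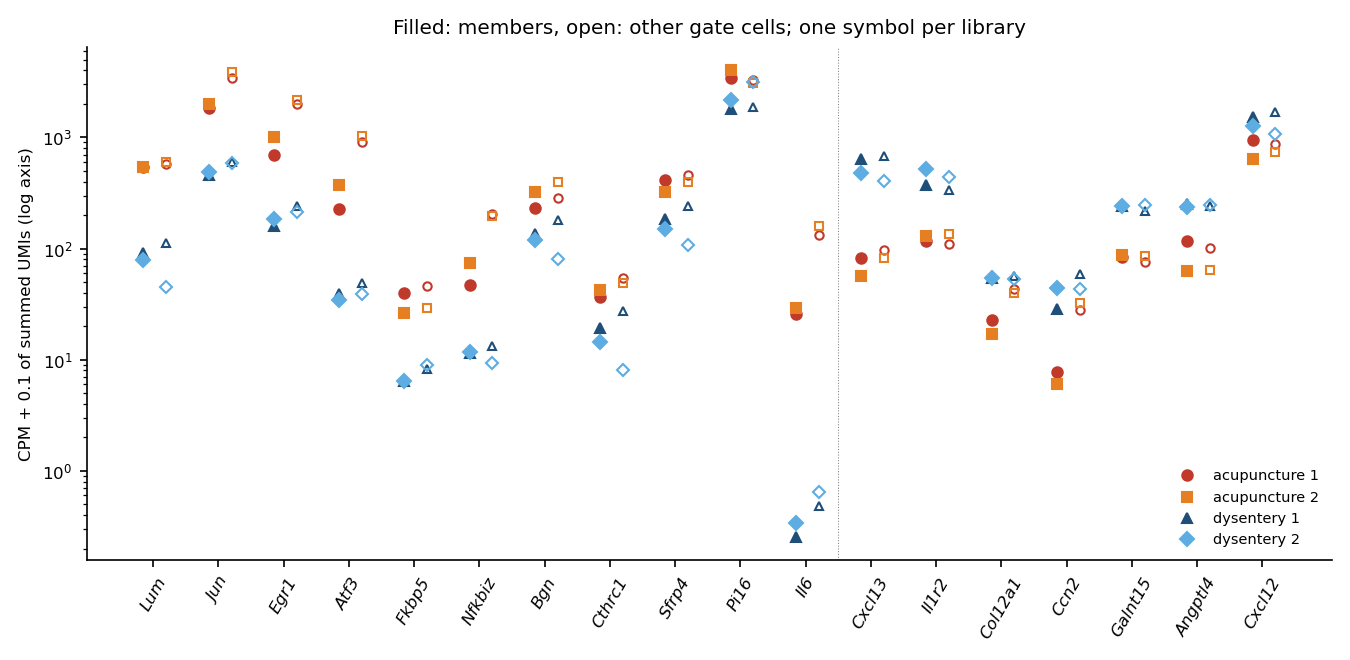
Level in CPM of summed UMIs (y axis, log scale, small constant added) of genes named in the text (x axis), filled for members and open for other gate cells, one symbol per library. The genes left of the dotted line were higher with acupuncture, such as Lum at 544 and 541 CPM against 91.4 and 79.2, and those on its right lower, such as Cxcl13.

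Whether members changed with acupuncture as the other gate cells did was tested as a difference of the log2 fold changes in one model with a term for each library. Of 11652 genes, 120 passed (1.03%), 15 with a greater value in members (0.129%) and 105 with a lower one (0.901%). Immediate early genes made up much of the lower side, with 15 of 23 called and a median of -0.84 against 0.00 over all genes, and 7 of 16 heat shock chaperones were lower with a median of -0.48. Fos was at 817 and 1333 CPM in members with acupuncture and 517 and 718 CPM without, against 2227 and 3186 CPM and 648 and 879 CPM in the other gate cells, a difference of -0.996 (SE 0.10, edgeR adjusted p = 2.01e-06). The rise was thus smaller in members for these genes.

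That difference moved with the limit on Has1 in the rule. Has1 was at 505 and 322 CPM in the other gate cells with acupuncture and at 67.3 and 98.6 CPM without, and stood at 41.0 to 64.1 CPM in members of all libraries. Has1, which the rule limits in members, was itself counted among the lower genes. When only other gate cells with fewer than 3 Has1 UMIs were compared, at 38.5 to 59.3 CPM of Has1, 14 genes passed edgeR's test in place of 120, with 0 of 23 immediate early genes and 1 of 16 chaperones. Fos was then at -0.01 and Junb at -0.02. With no Has1 limit in the rule 6 genes passed. At equal depth, where the Has1 limit is also easier to meet, 7 passed. Il6 (-1.14, edgeR adjusted p = 0.779), Lum (-0.33, edgeR adjusted p = 0.919) and Cxcl13 (-0.43, edgeR adjusted p = 0.111) showed no difference past the threshold in the first place. Lum stayed uncalled in 15 of 16 other settings and Cxcl13 in 13 of 16, and both passed in the rest.

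**Figure D5:**
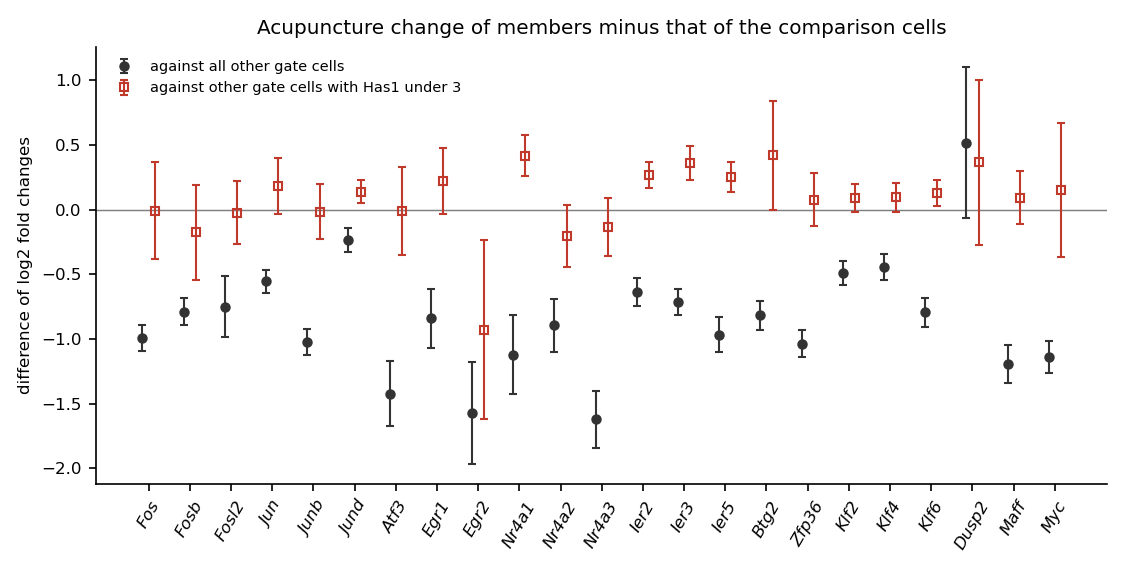
Difference between the acupuncture change of members and that of comparison cells (y axis, log2) for 23 immediate early genes (x axis). Bars are standard errors derived from the F statistic of the test. A bar clear of 0 is not a call, as for Atf3 against all other gate cells (-1.42, SE 0.25, edgeR adjusted p = 0.20). Filled points, against all other gate cells, are below 0 for all genes but Dusp2. Open points, against other gate cells with fewer than 3 Has1 UMIs, lie around 0 for most, as for Fos at -0.01 and Junb at -0.02.

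The genes whose level most resembled that of Postn were sought over 24 points, the 6 classes of gate cells in the 4 libraries, among 4948 genes. The points share libraries and the classes were cut on Postn itself, so the values are a description. Man2a1, a Golgi mannosidase, had r = 0.91, as did Ssc5d, a secreted scavenger receptor protein. Plpp3, a lipid phosphatase, and Cd248, the stromal surface protein endosialin, had r = 0.90. Rbp4, a retinol carrier, had the most opposed pattern with r = -0.91.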

How the data were processed

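Cell Ranger 6.0.1 and STAR produced the matrices, per the submitters' processing notes and the file headers. These notes list mRatBN7.2 and GRCh38.p13 as builds and do not say what each was used for. The deposited matrices hold raw UMI counts, and the deposited barcode and feature lists hold names only (other content). Of 30560 gene rows, 7162 carry an identifier only and 236 symbols stand on more than 1 row, and rows were kept apart by identifier. The members and gene lists were chosen with earlier results of these data known. UMIs were summed per library and class and tested with edgeR 4.0.16 (filterByExpr, minimum count 10, TMM, quasi-likelihood test, Benjamini-Hochberg threshold 0.05) across all genes. DESeq2 1.42.0 was an alternative. Paired comparisons held a library term. Standard errors (SE) were the size of the log2 fold change divided by the square root of the test's F statistic. Library replicates differed by more than counting noise. Clusters used scanpy 1.11.5 with 1000 variable genes, 20 components, 15 neighbours and resolution 0.5.

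Named genes were the markers, the 12 highest and 12 lowest called genes per comparison with at least 20 CPM and all libraries on one side, and up to 4 called genes of each list and direction by p. A few of these are not reported here. The 13 genes of the rule were left out of the tests of members against other cells of the same library. They stayed among the genes tested between the groups and for the difference of changes. They are thus in the gene and list counts there. Apart from the mention that Has1 was among the lower genes of the difference of changes, no test of them is reported. Numbered clusters and the genes shown for them were chosen after their values were seen. The fits were run on simulated counts with 67 genes changed 1.5-fold, 67 changed 2-fold and 66 changed 4-fold. Members against other gate cells, 76.1%, 95.5% and 100% were called, and against Cd34-positive cells 80.6%, 98.5% and 100%. Between the groups these shares were 13.4%, 50.7% and 92.4%, and for the difference of changes 38.8%, 70.1% and 90.9%. Unchanged genes called in error were 26, 11, 8 and 24 in the order of the comparisons above. The 26 for other gate cells stood beside 51, 64 and 66 changed genes called, and the 24 for the difference of changes beside 26, 47 and 60. For both, errors were thus a larger share of all calls than the adjusted p threshold of 0.05 aims at. The 11 stood beside 54, 66 and 66 and the 8 beside 9, 34 and 61, which is nearer that threshold. The share of errors among the genes called in the data was not tested.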

Additional observations from a re-analysis of the deposited data

Results flagged for a closer look

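The difference between the acupuncture change of members and that of the other gate cells, tested as an interaction, passed for 120 genes. It was lower in members for Ccl2 (-1.63), a monocyte chemokine at 408 and 465 CPM in members with acupuncture against 1588 and 1528 CPM in the other gate cells, and for Cxcl1 (-1.30). It was also lower for Tnfaip6 (-1.45), Junb (-1.02), Fos (-1.0) and Myc (-1.14). All 6 lost their calls when only other gate cells with fewer than 3 Has1 UMIs were compared.

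Mgp (-0.94) and Col12a1 (-1.02) were lower in members as well, and against low-Has1 cells they stood at -1.45 and -1.24. The call of each was lost without the acupuncture 2 library. H19 was greater in members by 0.97, and by 1.5 against low-Has1 cells, where it was not called. Without the acupuncture 1 or the acupuncture 2 library H19 was not called either. Il1b (2.28) was greater in members, at 19.6 and 10.0 CPM against 17.6 and 1.67 CPM, while the other gate cells were at 9.76 and 5.65 CPM against 42.0 and 5.11 CPM. At equal depth Il1b was at 0.14.

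Ccl5 (0.87) was greater in members, at 29.3 and 4.23 CPM with acupuncture and 78.4 and 14.2 CPM without. Its libraries of one group differed more than the groups did, and its call was lost without the acupuncture 1 or the acupuncture 2 library. Csn2 (-3.35), a milk casein, had 89.2 and 10.6 CPM in members of the acupuncture 1 and dysentery 1 libraries and 0 and 0.119 CPM in the other 2 libraries.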

How the results depend on the processing

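The difference in member share was -13.1 to 2.17 points without each library in turn. The genes called in members against the other gate cells were 139, and 494 with no low-count filter, 85 and 303 at Postn limits of 5 and 20, 231 against gate cells without Cd34, 278 without the 67 members of clusters 6 and 7, and 43 to 272 without each library. Leaving out those 67 members left the comparison cells as they were. Against Postn-high Cd34-positive cells they were 141, and 37 with DESeq2, 242 with no filter, 82 at a Postn limit of 20, 263 with no Has1 limit and 68 to 163 without each library. Between the groups they were 216, and 870 with no filter, 587 with no Has1 limit, 340 at equal depth and 240 to 1721 without each library. For the difference of changes they were 120, and 67 with DESeq2, 230 with no filter, 14 against low-Has1 cells, 6 with no Has1 limit, 7 at equal depth and 47 to 351 without each library. The cause was not tested.

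Values turned sign as follows. Against low-Has1 cells, Il6 (0.0804) and Cxcl3 (0.20) turned in members against other gate cells, and Cxcl1 (0.56), Myc (0.15) and Il6 (0.91) in the difference of changes. With no Has1 limit, Lum was 0.056 against Cd34-positive cells, Acta2 -0.0541 between the groups, and Cxcl1 0.0109 and Fos 0.0168 in the difference. At equal depth, Mcpt1l1 was -0.96 against other gate cells and Lum 0.17 against Cd34-positive cells. Aif1 was -0.16 without clusters 6 and 7, and Ccl5 was -0.15 at a Postn limit of 20. The settings on equal depth, Has1 and clusters were chosen after seeing the data.

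With the replicate number as a block, 716 genes passed between the groups, 215 of the 216 among them. Same-numbered libraries had a correlation of deviations of 0.19 over 2 pairs, too few to tell whether the numbers pair them, and they were treated as unpaired.

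There are 2 libraries per group, which limits every comparison. Called genes chosen by the naming rule held every setting they were tested in for 3 of 37, 3 of 26, 29 of 53 and 0 of 12 genes in the order of the comparisons above.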

Other observations

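The Postn-high gate cells with a Col15a1 UMI were looked at for Cd34 in one range of depth. In cells of 4000 to 16000 UMIs, those with Col15a1 were without a Cd34 UMI in 59.0%, 69.6%, 79.6% and 74.5% of cases in the acupuncture 1, acupuncture 2, dysentery 1 and dysentery 2 libraries, over 61, 46, 54 and 47 cells. Those without Col15a1 were so in 51.5%, 51.0%, 54.7% and 56.6% of cases. The gene was chosen after its values were seen, and the difference carries no test. Depth still varied within the range, with medians of 8512, 9034, 7972.5 and 8379 UMIs in cells with Col15a1 against 7564.5, 8938, 8842 and 7594.5. The 95% exact Clopper-Pearson intervals overlapped in the acupuncture 1 library (45.7 to 71.4 against 47.8 to 55.1). They also overlapped, barely, in the acupuncture 2 library (54.25 to 82.3 against 47.7 to 54.26). Cells with no Pi16 UMI in the same depth range lacked Cd34 in 66.7%, 80.0%, 69.5% and 71.8% of cases, against 51.1%, 51.0%, 54.8% and 56.3% of cells with Pi16. Those without Pi16 were 51, 30, 82 and 85 cells. The intervals for Pi16 overlapped in the acupuncture 1 library (52.1 to 79.2 against 47.4 to 54.7). Igfbp7 and Il33 were looked at in the same way. Cells with Igfbp7 lacked Cd34 in 54.9%, 52.0%, 63.7% and 64.1% of cases, against 50.7%, 51.8%, 52.4% and 55.9% of cells without it. Cells without Il33 did so in 65.1%, 79.2%, 70.2% and 84.0% of cases, against 51.3%, 51.2%, 55.3% and 56.7% of cells with it. None of these differences carries a test.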
